A study of Mus musculus with 6 samples.

Results

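The IFIT and antiviral effector genes were followed through all 6 libraries of a doxycycline-inducible LINE-1 experiment. They are 10 of the 24421 genes in the count table: Ifit1, Ifit2, Ifit3, Isg15, Usp18, Rsad2, Mx1, Mx2, Bst2 and Ifi35. They were taken by symbol, with earlier results of these data known. All 10 were found and passed the filter on low counts, which left 13084 genes for testing. The question behind this experiment was which transcripts respond when a LINE-1 (L1) retrotransposon is switched on in tumor cells. RNA depleted of ribosomal species was sequenced from 4T1-tetL1(GLucAI) cells, derived from a mouse breast carcinoma of the strain given as BALB/cfC3H. Cells were either left untreated (3 libraries, called vehicle in another field of the labels) or given 400 ng/mL of doxycycline over 48 h (3 libraries). Both groups carried the same integrated cassette, in a selected stable population and not a single clone. The cassette holds a recoded mouse L1 and firefly luciferase under a tetracycline-responsive promoter, a Gaussia luciferase readout of retrotransposition, and an activator driven by the EF1α promoter. Doxycycline was given to the induced group alone, so an effect of the drug and an effect of L1 cannot be told apart. Counts of the cassette, against which the labels could be checked, were not analysed here.

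Type I interferons are secreted when a cell senses viral or misplaced nucleic acid. Through their receptor they activate a transcription complex that holds IRF9 (ISGF3) and binds interferon-stimulated response elements (ISREs) near gene starts. The genes switched on in this way include the IFIT proteins, which bind viral RNA or translation factors, and proteins that act on viral budding, replication or nucleocapsids. Many cell types hold a low tonic level of the same genes without infection.

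Promoter sequence was taken from RefSeq (GRCm38.p6), as windows from 250 bases before to 50 after a start. Such windows were found for 7 of the 10 genes, 8 windows in all because Ifit2 has a pair of them. Usp18, Mx1 and Mx2 have no entry there. The ISRE core was searched as GAAANNGAA, 9 letters long, on both strands. An ISRE core was present in 8.56% of all 32851 windows, and more than 1 in 0.624%. Counted by gene, 9.76% of 27025 genes had a window with an ISRE core. The share of genes with more than 1 was not computed. Among the 7 genes, 5 had at least 1 and 4 had at least 2: Ifit1, Ifit3 and Isg15 had 3 matches each, Bst2 had 2 and Rsad2 had 1. Ifit2 and Ifi35 had no ISRE core match in their windows. A match describes letters and is not a shown binding site, and a window without a match says nothing of elements farther away.

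The stretches below are the 160 bases before the start of each gene, read 5′ to 3′ on the strand of the gene. They are shown because 4 of the genes hold repeated ISRE cores, 1 holds a single core, and Ifit2 and Ifi35 hold none. Capitals mark ISRE core matches, adjoining or overlapping ones run together, and the name gives the strand and the place. For Ifit2, the window whose start matches that of the annotated transcript is printed. For Bst2 and Ifit3, the 50 bases after the start were not found whole in an annotated transcript, so their positions hold for the RefSeq start only.
Ifit1, plus strand, chr19:34640729-34640888: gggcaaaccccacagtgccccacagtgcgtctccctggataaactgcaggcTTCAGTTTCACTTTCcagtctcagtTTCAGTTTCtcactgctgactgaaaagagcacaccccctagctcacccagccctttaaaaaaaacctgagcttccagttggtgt
Ifit3, plus strand, chr19:34583369-34583528: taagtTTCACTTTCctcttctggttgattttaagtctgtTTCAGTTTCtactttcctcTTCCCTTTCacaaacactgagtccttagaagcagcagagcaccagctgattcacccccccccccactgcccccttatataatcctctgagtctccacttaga
Isg15, minus strand, chr4:156200819-156200978: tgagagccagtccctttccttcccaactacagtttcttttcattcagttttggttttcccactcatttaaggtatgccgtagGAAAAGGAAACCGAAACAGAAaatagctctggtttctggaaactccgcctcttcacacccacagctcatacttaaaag
Bst2, minus strand, chr8:71537473-71537632: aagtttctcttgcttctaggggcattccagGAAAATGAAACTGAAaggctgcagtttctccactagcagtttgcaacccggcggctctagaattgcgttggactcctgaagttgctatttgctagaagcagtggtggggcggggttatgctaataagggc
Rsad2, minus strand, chr12:26456453-26456612: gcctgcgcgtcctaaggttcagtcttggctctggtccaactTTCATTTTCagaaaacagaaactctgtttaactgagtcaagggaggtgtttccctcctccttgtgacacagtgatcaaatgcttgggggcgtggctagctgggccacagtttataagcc
Ifit2, plus strand, chr19:34550534-34550693: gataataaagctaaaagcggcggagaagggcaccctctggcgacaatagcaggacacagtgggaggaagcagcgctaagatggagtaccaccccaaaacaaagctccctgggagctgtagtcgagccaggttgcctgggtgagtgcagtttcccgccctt
Ifi35, plus strand, chr11:101448252-101448411: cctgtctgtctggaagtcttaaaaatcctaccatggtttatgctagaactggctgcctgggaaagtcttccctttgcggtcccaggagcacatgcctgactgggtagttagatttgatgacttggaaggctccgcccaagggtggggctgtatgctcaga

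In Isg15 the 3 cores overlapped and began at positions -78, -72 and -66 from the start. In Bst2 both cores overlapped, at -130 and -124. The cores of Ifit1 began at -109, -103 and -84 and those of Ifit3 at -155, -121 and -102, on the opposite strand of the gene in all 6 cases. The single core of Rsad2 began at -119, also on the opposite strand.

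**Figure D1:**
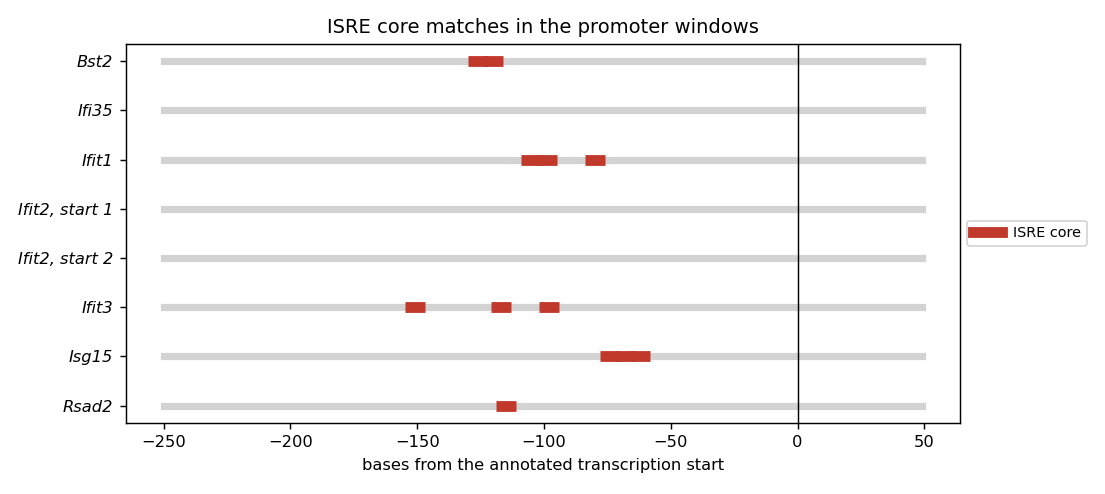
Positions of ISRE core letters (red blocks, overlapping matches run together) in the RefSeq promoter windows of 7 genes, with the distance from the annotated start in bases on the horizontal axis and 1 line for each of the 8 windows. The 3 matches each of Ifit1, Ifit3 and Isg15 and the 2 of Bst2 lie upstream of the start, and Ifit2 and Ifi35 hold no ISRE core.

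Library totals lay between 31653464 and 43631312 counts, and 3 counts corresponded to 0.0683 to 0.0944 CPM, a limit that covers counting error only. CPM are counts scaled to a common library size after TMM adjustment. No pair of libraries of the same group agreed within sampling noise, and pairs across groups were not compared in this way. The paper calls the replicates biological triplicates, while the labels do not say that they came from separate cultures. The p-values therefore measure the spread between these samples, part of which may be technical. All 9 epithelial markers (Krt8, Krt18, Epcam and others) passed the filter. Their summed levels were 1866 to 1950 CPM in untreated and 1815 to 2046 CPM in doxycycline libraries. Krt19 was the 1 that passed the test, lower with doxycycline and without overlap. The log2 fold change was above 0 for 7 of the 9 and below 0 for 2. Epcam, Cldn4 and Cldn7 were higher without overlap but not past the test (adjusted p = 0.336, 0.0858 and 0.230). Of all genes tested, 10.1% were higher and 11.1% lower without overlap. Of 10 leukocyte markers, 2 passed the filter. Their summed level was 9.91 to 12.1 CPM in untreated and 9.46 to 12 CPM in doxycycline libraries, nearly all of it Cd68, and Adgre1 and Tyrobp were at 0 in every library. Of 4 markers of plasmacytoid dendritic cells, which secrete much interferon, Bst2 is itself 1 of the antiviral genes and Siglech was at 0 in every library. Tcf4 stood at 180 ± 1.95 CPM untreated and 157 ± 9.0 CPM with doxycycline and passed the test as lower (adjusted p = 0.0256). Ccr9 stood at 0.240 ± 0.121 and 0.490 ± 0.092 CPM, higher without overlap but not past the test (adjusted p = 0.300). The list summed to 210 to 215 CPM untreated and 190 to 208 CPM with doxycycline. The 4 endothelial markers summed to at most 0.810 CPM. Fibroblast markers summed to 35.7 to 38.7 CPM and 28.0 to 29.6 CPM, nearly all of it Pdgfra, which passed the test as lower with doxycycline, with Lum at 0. The part of these marker differences in the results below was not tested.

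No gene of the 10 passed the test between the groups, yet the 3 doxycycline libraries differed among themselves. Doxycycline replicate 2 held the highest level of all 6 libraries for 8 genes, a position it took for 22.2% of all genes tested. Doxycycline replicate 3 was the lowest of the 3 doxycycline libraries for all 10 genes, against 29.4% of all genes tested. That these libraries differ in interferon genes was known when the genes were chosen, and most of the genes followed one another across libraries. Both counts describe the libraries and are not independent evidence from 10 genes. With edgeR's quasi-likelihood test and Benjamini-Hochberg adjustment over all genes tested, 0 genes were called higher (background 0.925%) and 0 lower (background 2.16%). At an unadjusted p under 0.05 there were 3, Bst2 and Ifi35 with higher and Ifit2 with lower levels, where 16.2% of all genes tested passed. DESeq2 and limma voom also called 0 of the 10. The log2 fold change was above 0 for 9 genes, with a median of 0.21 against 0.0025 over all genes tested. Groups overlapped for every gene, where 10.1% of all genes tested had all doxycycline libraries higher and 11.1% all lower. In bulk RNA, fewer expressing cells and less RNA per cell cannot be told apart.

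**Figure D2:**
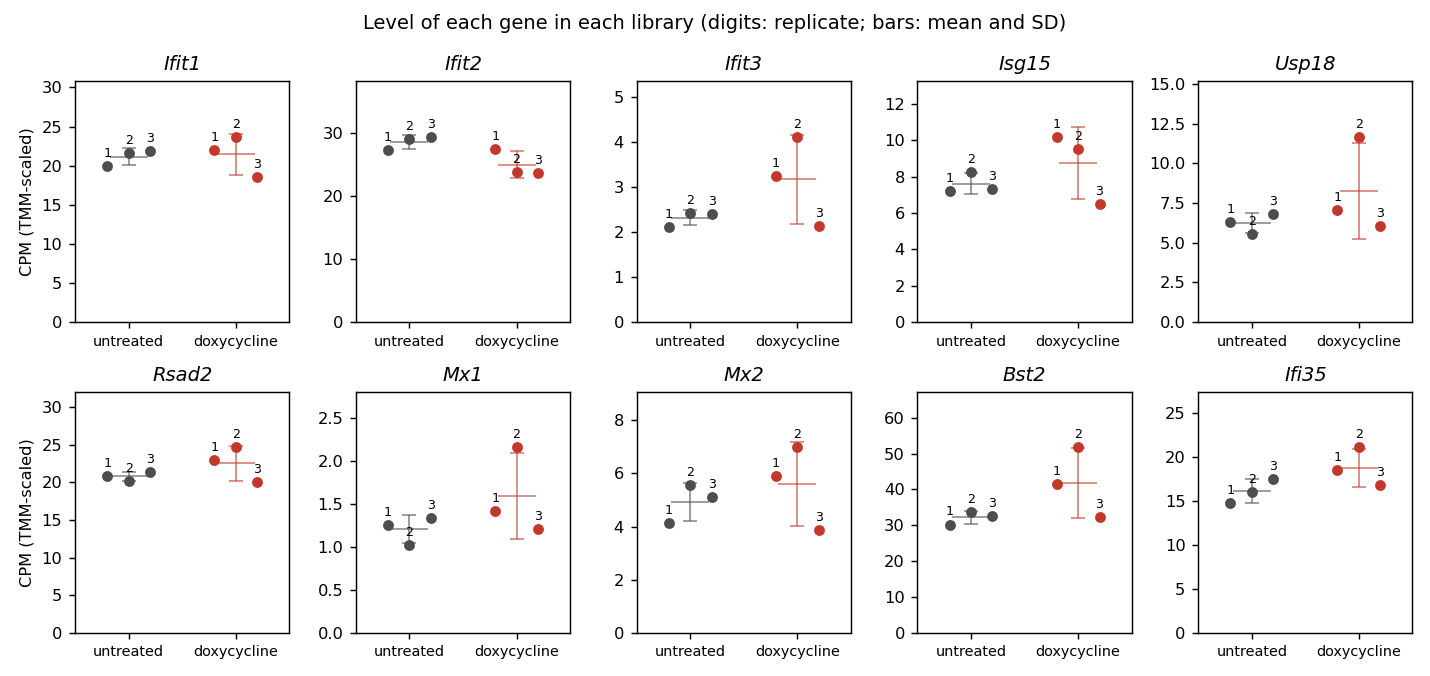
Level of each of the 10 genes in CPM on the vertical axis (starting at 0) in the untreated and doxycycline libraries, where digits are replicate numbers and bars show the mean and SD of 3 libraries. The groups overlap in every panel, and replicate 2 stands at the top of the doxycycline libraries in 8 panels.

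The IFIT genes lie close together on chromosome 19 (GRCm38, plus strand). Ifit1, whose protein binds RNA with an unmethylated cap, spans bases 34640871 to 34650009. It stood at 19.9, 21.6 and 21.9 CPM in untreated replicates 1 to 3 and at 22, 23.7 and 18.6 CPM in doxycycline replicates 1 to 3. Doxycycline replicates 2 and 3 were the highest and the lowest of all 6 libraries, so the group spanned the untreated one. The means were 21.1 ± 1.08 and 21.4 ± 2.62 CPM (SD over the 3 libraries of a group, as below). The log2 fold change was 0.02 (SE 0.09, 95% interval -0.17 to 0.21, adjusted p = 0.938). The sign depended on single libraries: the log2 fold change was -0.06 without doxycycline replicate 2 and -0.02 without untreated replicate 1.

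Ifit2, whose protein binds RNA and promotes cell death, spans bases 34550694 to 34576419. Its levels were 27.3, 28.9 and 29.4 CPM untreated and 27.5, 23.8 and 23.6 CPM with doxycycline. Here doxycycline replicates 2 and 3 lay together below every untreated library and replicate 1 among them, whereas the other 9 genes had replicate 2 above every untreated library. The means were 28.5 ± 1.08 and 25 ± 2.16 CPM, a log2 fold change of -0.20 (SE 0.08, interval -0.36 to -0.04, adjusted p = 0.201). It was the only 1 of the 10 with a fitted value below 0 over all libraries.

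Ifit3, whose protein stabilizes IFIT1 in the human complex, spans bases 34583531 to 34588731 and was the lowest of the 3 IFIT genes. Its levels were 2.12, 2.43 and 2.40 CPM untreated and 3.24, 4.11 and 2.14 CPM with doxycycline, from 81 to 168 reads. Doxycycline replicates 1 and 2 exceeded all untreated libraries, while replicate 3 lay just above the lowest of them. The means were 2.32 ± 0.17 and 3.17 ± 0.99 CPM, a log2 fold change of 0.46 (SE 0.22, interval -0.00077 to 0.91, adjusted p = 0.310). Its near-identical neighbour Ifit3b shares 51.2% of the 50-base windows of the Ifit3 transcripts, and how reads that fit both were counted is not given in the sources used here, so the level of Ifit3 is uncertain. Summing the reads of both genes, an alternative chosen after seeing the data, gave 4.85, 6.98 and 4.97 CPM untreated and 6.35, 8.38 and 4.55 CPM with doxycycline. That sum had a log2 fold change of 0.21 (SE 0.19, adjusted p = 0.644), less than that of Ifit3 alone, and kept doxycycline replicate 2 highest and replicate 3 lowest.

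Isg15 encodes a ubiquitin-like protein that is attached to other proteins and also secreted, and lies on chromosome 4 (bases 156199424 to 156200818, minus strand). It was measured at 7.22, 8.27 and 7.32 CPM in untreated libraries and at 10.2, 9.53 and 6.48 CPM in doxycycline libraries. Replicates 1 and 2 were above and replicate 3 below all untreated libraries, and here replicate 1 was the highest. The means were 7.60 ± 0.58 and 8.73 ± 1.98 CPM, a log2 fold change of 0.20 (SE 0.14, interval -0.10 to 0.50, adjusted p = 0.532).

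Usp18 encodes the protease that removes ISG15 from its targets and also damps signalling at the interferon receptor. It lies on chromosome 6 (bases 121245906 to 121270917, plus strand) and overlaps the exons of the antisense gene Gm44148 by 124 bases. It stood at 6.29, 5.58 and 6.81 CPM untreated and at 7.05, 11.7 and 6.06 CPM with doxycycline. Replicate 2 was far above the rest, replicate 1 just above the untreated libraries and replicate 3 among them. The means were 6.22 ± 0.62 and 8.26 ± 3.0 CPM, a log2 fold change of 0.41 (SE 0.20, interval -0.0029 to 0.83, adjusted p = 0.311).

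Rsad2 encodes viperin, an enzyme that makes a chain-terminating nucleotide, and lies on chromosome 12 (bases 26442746 to 26456452, minus strand). Its levels were 20.8, 20.2 and 21.4 CPM untreated and 23.0, 24.7 and 20.0 CPM with doxycycline. Replicates 1 and 2 were above and replicate 3 just below every untreated library. The means were 20.8 ± 0.59 and 22.6 ± 2.34 CPM, a log2 fold change of 0.12 (SE 0.09, interval -0.06 to 0.29, adjusted p = 0.534).

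Mx1 and Mx2 encode dynamin-like GTPases that trap viral nucleocapsids, and many inbred mouse strains carry alleles that give no functional protein. Mx1 (chromosome 16, bases 97447035 to 97462907, minus strand) was the least abundant of the 10, from 34 to 88 reads. It stood at 1.25, 1.02 and 1.34 CPM untreated and at 1.42, 2.16 and 1.20 CPM with doxycycline. Replicate 2 was again the highest, replicate 1 just above the untreated libraries and replicate 3 among them. The means were 1.20 ± 0.16 and 1.59 ± 0.50 CPM, a log2 fold change of 0.41 (SE 0.28, interval -0.18 to 0.99, adjusted p = 0.511), the widest interval of the 10.

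Mx2 (chromosome 16, bases 97535308 to 97560900, plus strand) is annotated as a polymorphic pseudogene. Its levels were 4.14, 5.55 and 5.10 CPM untreated and 5.91, 6.98 and 3.87 CPM with doxycycline. Replicates 1 and 2 were above and replicate 3 below all untreated libraries. The means were 4.93 ± 0.72 and 5.59 ± 1.58 CPM, a log2 fold change of 0.19 (SE 0.18, interval -0.19 to 0.57, adjusted p = 0.669). Without doxycycline replicate 2 it was -0.02.

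Bst2 encodes tetherin, which holds budding virions at the cell surface, and lies on chromosome 8 (bases 71534255 to 71537456, minus strand). It had the largest differences in CPM, with 30.2, 33.8 and 32.6 CPM untreated and 41.5, 51.7 and 32.3 CPM with doxycycline. Replicates 1 and 2 stood well above the untreated libraries, and replicate 3 lay among them. The means were 32.2 ± 1.83 and 41.9 ± 9.72 CPM, a log2 fold change of 0.38 (SE 0.15, interval 0.04 to 0.72, adjusted p = 0.246). Its call depended on 1 library: without doxycycline replicate 3 the log2 fold change was 0.54 with an adjusted p of 0.00286. It also passed with no filter on low counts (adjusted p = 0.0023) and with the replicate number as a block (adjusted p = 0.0271), although the numbers were not found to pair the libraries. Over all 15 alternatives its adjusted p ranged from 0.0023 to 0.481.

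Ifi35 encodes a leucine zipper protein that partners NMI, and lies on chromosome 11 (bases 101448407 to 101458698, plus strand). Its exons overlap the antisense gene Gm11626 by 290 bases. It stood at 14.8, 16.1 and 17.5 CPM untreated and at 18.5, 21.1 and 16.8 CPM with doxycycline. Replicates 1 and 2 were above every untreated library and replicate 3 within their range. The means were 16.1 ± 1.37 and 18.8 ± 2.17 CPM, a log2 fold change of 0.23 (SE 0.10, interval 0.02 to 0.43, adjusted p = 0.241).

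**Figure D3:**
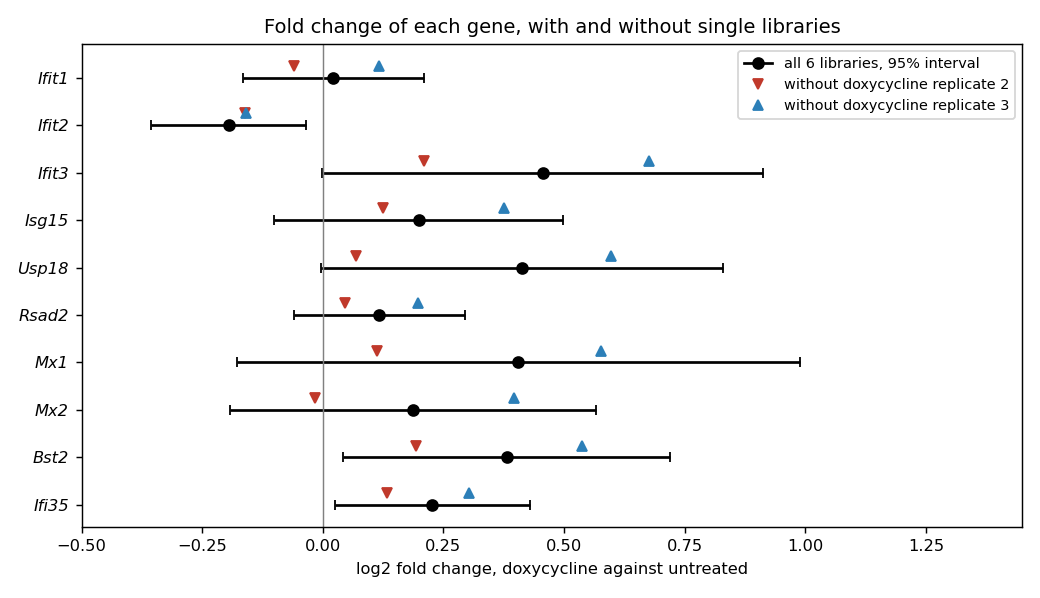
Log2 fold change of each gene, doxycycline against untreated, on the horizontal axis, with points and 95% intervals from all 6 libraries and triangles for the values without doxycycline replicate 2 (red) or 3 (blue). The median of the 10 genes is 0.21 with all libraries, 0.09 without replicate 2 and 0.39 without replicate 3.

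No upper bound of these intervals reached 1 on the log2 scale, the highest being 0.99 for Mx1, and no lower bound was below -0.36. The median log2 fold change fell to 0.09 without doxycycline replicate 2, where 7 genes were above 0, and rose to 0.39 without replicate 3, where 9 were.

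Per kilobase of annotated exon, Bst2 had the highest level in untreated cells, at 35.7 ± 2.03 CPM per kb. Isg15 (10.1 ± 0.77), Ifi35 (9.33 ± 0.79), Ifit1 (7.96 ± 0.41), Ifit2 (7.27 ± 0.27) and Rsad2 (4.80 ± 0.14) followed, all in CPM per kb. Usp18 (2.23 ± 0.22), Mx2 (1.36 ± 0.20), Ifit3 (1.33 ± 0.10) and Mx1 (0.318 ± 0.043) were lowest on the same scale. Isg15 and Ifi35 did not differ beyond their summed SDs, nor did Mx2 and Ifit3, while Ifit1 and Ifit2 were barely apart (0.69 against summed SDs of 0.68 CPM per kb). The lengths are those of GENCODE gene models and may not be those the authors counted on.

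The 10 genes were spread more widely over the doxycycline libraries than over the untreated ones. On the log2 CPM scale, the range over the 3 doxycycline libraries had a median of 0.66 over the 10 genes, against 0.20 over all genes tested. In untreated libraries it was 0.19, against 0.15. The doxycycline range exceeded the untreated one for all 10 genes and for 62.3% of all genes tested. Usp18 had a range that 5.25% of all genes tested exceeded, Ifit3 5.44%, Mx2 6.59%, Mx1 7.05%, Bst2 9.65% and Isg15 10.3%. Ifit1 (24.3%), Ifi35 (26.6%), Rsad2 (30.2%) and Ifit2 (45.4%) were more ordinary. These are descriptions of 3 libraries, with no test of a library on its own. The ranks were taken over genes of all levels, and counting error widens the range of genes with few reads, such as Mx1 and Ifit3. The part of counting error in these ranks was not tested.

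**Figure D4:**
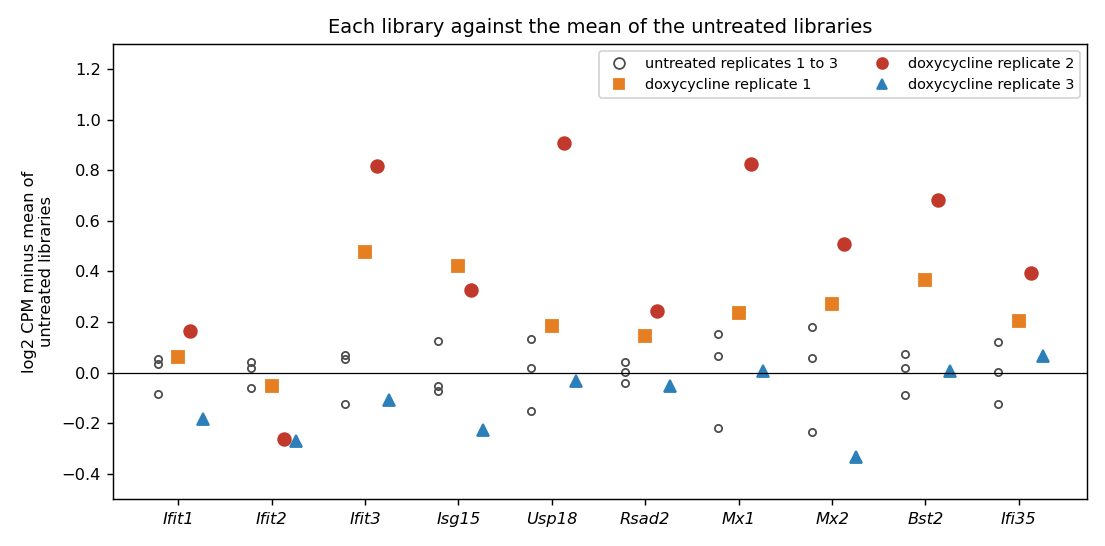
Log2 CPM of each gene in each library minus its mean over the untreated libraries (vertical axis), with untreated replicates as open circles and doxycycline replicates 1, 2 and 3 as separate filled symbols. Replicate 2 lies highest for 8 genes and replicate 3 lowest of the doxycycline libraries for all 10, with medians of 0.22, 0.45 and -0.08 for replicates 1 to 3.

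Set against the mean of the untreated libraries, the median log2 difference of the 10 genes was 0.22 in doxycycline replicate 1, 0.45 in replicate 2 and -0.08 in replicate 3. The median of all genes tested stayed within 0.005 of 0 in every library. Replicate 1 exceeded the highest untreated library for 9 genes and fell below the lowest for 0, shares that were 31% and 30.6% of all genes tested. For replicate 2 these were 9 and 1 genes (32.6% and 33.3% of all genes tested), and for replicate 3 they were 0 and 5 (30.4% and 30.2%). Doxycycline replicates 1 to 3 had 31653464, 41264244 and 38467996 counts, and the part of depth in these differences was not tested.

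Each pair of doxycycline libraries was compared by the ratio of their CPM, with exact Clopper-Pearson 95% intervals that cover counting error only. Replicate 2 exceeded replicate 3 beyond this error for 9 genes and was below it for 0, against 20.6% and 21.5% of all genes tested. The ratio was 1.93 (1.64 to 2.27) for Usp18, 1.92 (1.47 to 2.53) for Ifit3 and 1.81 (1.48 to 2.22) for Mx2. It was 1.6 (1.49 to 1.72) for Bst2, the gene with most reads, and 1.01 (0.918 to 1.10) for Ifit2, the exception. Replicate 1 exceeded replicate 3 for 7 genes and was below it for 0 (16.4% and 16.8% of all genes tested). Between replicates 2 and 1, 4 genes were higher in replicate 2: Usp18 (ratio 1.66), Mx1 (1.52), Bst2 (1.25) and Ifi35 (1.14). Ifit2 was lower there (0.866). Of all genes tested, 22.9% were higher and 23.1% lower in this pair.

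Across the 6 libraries the genes followed one another closely, with Ifit2 apart. The Pearson r of each gene's log2 CPM with the mean profile of the other 9 was 0.972 for Ifit3, 0.947 for Rsad2, 0.929 for Mx2, 0.927 for Bst2 and 0.897 for Ifit1. It was 0.854 for Ifi35, 0.829 for Usp18, 0.829 for Isg15 and 0.795 for Mx1. For Ifit2 it was -0.281. The 6 points share their libraries and scaling between genes, and the values are a description. Of the pair without an ISRE core in their windows, Ifi35 followed the other genes and Ifit2 did not.

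Outside the 10, 2153 genes had a mean of at least 1 CPM and a range of at least 0.5 log2 CPM over the libraries. The 10 of these with the profile most like the mean of the antiviral genes were Oasl2 (r = 0.993), Ifi44 (0.975), Cxcr6 (0.972), Ifi27l2a (0.948), Xaf1 (0.937), Irf7 (0.937), Ccdc38 (0.937), Mir3068 (0.936), Phf11d (0.932) and Ddx60 (0.928). Of these, 5 (Ifi44, Ifi27l2a, Xaf1, Irf7 and Ddx60) were in the lists of interferon genes described next, which held 14 (0.65%) of the 2153 genes. Oasl2, an oligoadenylate synthetase-like gene, stood at 39.2, 41.7 and 44.4 CPM untreated and at 47.9, 57.7 and 38.0 CPM with doxycycline. Irf7, a factor that raises interferon transcription, stood at 11.9, 15.2 and 14.0 CPM untreated and at 16.2, 22.7 and 12.9 CPM with doxycycline. Both were picked for this profile, so the order of their libraries is a description. None of the 10 passed the test between groups. Cxcr6, Ifi27l2a, Ccdc38 and Mir3068 had means near 1 to 2 CPM, where counting error is largest.

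Other genes of the pathway were taken from 4 lists holding 62 genes, of which 54 were tested. In edgeR's test 0 were called higher (background 0.925%) and 0 lower (background 2.16%), and limma voom called 0. At an unadjusted p under 0.05 in edgeR's test there were 9 (2 higher, 7 lower). Of all genes tested 16.2% passed that limit, a share to set beside each list below. DESeq2 called 1, Slfn2. The log2 fold change was above 0 for 26 and below 0 for 28, with a median of -0.003, next to 0.21 for the 10 antiviral genes and 0.0025 for all genes tested. Doxycycline replicate 2 was the highest library for 26 of the 54, against 22.2% of all genes tested. Replicate 3 was the lowest doxycycline library for 37, against 29.4% of all genes tested. Their median difference from the untreated mean was -0.01, 0.09 and -0.09 in doxycycline replicates 1 to 3, next to 0.22, 0.45 and -0.08 for the 10 genes.

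**Figure D5:**
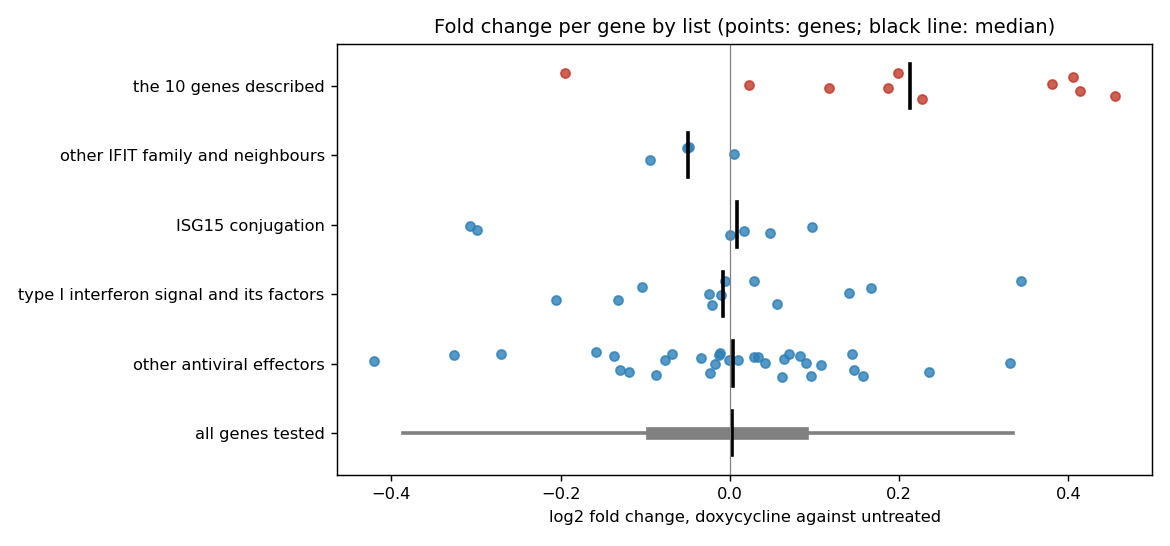
Log2 fold change, doxycycline against untreated, on the horizontal axis for each tested gene (points) of the 10 antiviral genes and of the 4 lists, with black lines for medians and grey bars for all genes tested. The median is 0.21 for the 10 genes and lies between -0.05 and 0.01 for the 4 lists.

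The list of other IFIT family genes also held Cmpk2 and Tor3a, which are not IFIT genes. Of this list 4 of 5 were tested, 1 with a log2 fold change above 0 and 3 below, with 0 called and 0 at an unadjusted p under 0.05. Cmpk2, the kinase encoded beside Rsad2, had 12.8 ± 0.52 CPM untreated and 11.9 ± 2.75 CPM with doxycycline (log2 fold change -0.09, SE 0.13, adjusted p = 0.780). Tor3a had 46.4 ± 1.56 and 44.9 ± 3.87 CPM (-0.05, SE 0.07, adjusted p = 0.786). Both differences were smaller than the SD of the doxycycline libraries.

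Of the 6 genes of ISG15 conjugation, all tested, 4 were above and 2 below 0, 0 were called and 1 had an unadjusted p under 0.05. Ube2l6, the enzyme that carries activated ISG15, stood at 10.5, 10.4 and 10.1 CPM untreated and at 7.55, 10.2 and 7.18 CPM with doxycycline. Replicates 1 and 3 were low and replicate 2 was within the untreated range. Its log2 fold change was -0.31 (SE 0.13, adjusted p = 0.221), and -0.49 (adjusted p = 0.0111) without doxycycline replicate 2. Over all 15 alternatives its adjusted p ranged from 0.0111 to 0.533. Uba7, the enzyme that activates ISG15, had 4.08 ± 0.80 and 3.28 ± 0.76 CPM (-0.30, SE 0.19, adjusted p = 0.468).

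Of the type I interferon signal and its factors, 12 of 16 were tested, 5 above and 7 below 0, with 0 called and 1 at an unadjusted p under 0.05. Interferon transcripts themselves, named after their values were seen, were at or near 0: Ifna4, Ifnl2 and Ifnl3 had no read in any library, and Ifnb1 had 4, 0 and 2 reads untreated and 2, 0 and 0 with doxycycline. Irf1, a factor induced early by interferon, stood at 35.0, 34.9 and 32.8 CPM untreated and at 28.1, 31.4 and 29.6 CPM with doxycycline, with no overlap. Its log2 fold change was -0.21 (SE 0.07, adjusted p = 0.121), and -0.25 (adjusted p = 0.0305, the lowest of 15 alternatives, with 0.333 the highest) without doxycycline replicate 2. Irf9, the DNA-binding part of ISGF3, had 29.2 ± 1.06 and 32.2 ± 1.02 CPM, also without overlap but in the other direction (0.14, SE 0.07, adjusted p = 0.310).

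Of the other antiviral effectors, 32 of 35 were tested, 16 above and 16 below 0, with 0 called and 7 at an unadjusted p under 0.05 (2 higher, 5 lower). Slfn2, a schlafen gene, stood at 18.3, 16.2 and 18.2 CPM untreated and at 13, 16.0 and 13.1 CPM with doxycycline. Its log2 fold change was -0.33 (SE 0.10, adjusted p = 0.0804), and -0.43 (adjusted p = 0.00388) without doxycycline replicate 2. Ifi27 had 108 ± 2.79 and 96.8 ± 3.13 CPM (-0.16, SE 0.05, adjusted p = 0.0889), and -0.19 (adjusted p = 0.00946) without doxycycline replicate 2. Ifi44 had a log2 fold change of 0.33 (SE 0.15, adjusted p = 0.296), and 0.49 (adjusted p = 0.00897) without doxycycline replicate 3. Over all 15 alternatives the adjusted p ranged from 0.0039 to 0.294 for Slfn2, from 0.0095 to 0.283 for Ifi27 and from 0.0040 to 0.527 for Ifi44.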

How the data were processed

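Total RNA of 3 untreated and 3 doxycycline-treated samples was sequenced after depletion of ribosomal RNA with a strand-preserving kit. Reads were aligned with STAR to GRCm38 and counted per gene with featureCounts. The authors deposited these raw counts without normalization, replicates kept apart. The submitters' processing notes name Subread 1.6.2 and bcl2fastq 2.20. The strand setting and the handling of reads with several matches are not given in the sources used here.

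Groups came from the sample titles. All columns were matched to a sample, 0 unmatched. Counts were tested with the quasi-likelihood test of edgeR 4.0.16 (R 4.3.3, two-sided, robust, TMM scaling, filterByExpr, group as the only term), with Benjamini-Hochberg adjustment over all genes tested and a threshold of 0.05. SEs and 95% intervals of log2 fold changes come from the same fit. Log2 CPM used a prior count of 2. The study used DESeq2, run here (1.42.0) as an alternative, like limma 3.58.1 voom, other scalings and filters, the replicate block and leaving out each library. Scripts were tested on simulated data.

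The genes, lists and tests were chosen with earlier results of these data known. All 10 genes are named, then from each list the genes past the threshold or else the 2 with the smallest p, and the 10 genes with the most similar profile. Exon lengths, overlaps and coordinates are from the GENCODE M21 annotation of GRCm38, which may differ from that used for counting.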

Additional observations from a re-analysis of the deposited data

How the results depend on the processing

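Main values were 121 genes called higher and 283 lower, with 0 of the 10 antiviral genes and 0 of the other pathway genes called in either direction. With no filter on low counts, 210 genes were higher and 439 lower, 1 antiviral gene was higher (Bst2), and 2 pathway genes were higher (Ifi44 and Irf7) and 1 lower (Slfn2). The DESeq2 Wald test gave 185 genes higher and 1 pathway gene lower (Slfn2). Leaving out 1 library at a time gave 44 to 269 genes higher, 116 to 487 lower, 0 to 1 antiviral genes higher (Bst2, without doxycycline replicate 3), 0 to 1 pathway genes higher (Ifi44, without doxycycline replicate 3) and 0 to 4 lower (Irf1, Slfn2, Ifi27 and Ube2l6, without doxycycline replicate 2). The replicate block gave 1 antiviral gene higher (Bst2, log2 fold change 0.36), with 118 genes higher and 300 lower, and changed no other call among the antiviral and pathway genes. Same-numbered samples had correlations of -0.0399 to 0.0176 in their deviations, and 1 of 6 samples correlated best with its own number, so the numbers were not taken as pairs. Of 150 values of single antiviral genes under these alternatives, 144 kept direction and call, 3 passed the threshold (Bst2) and 3 changed sign, 2 of Ifit1 and 1 of Mx2. When 1 library was left out, Ifit1 ranged from -0.060 to 0.12 (-0.021 without untreated replicate 1) and Mx2 from -0.016 to 0.40, both lowest without doxycycline replicate 2. The median of the 10 log2 fold changes lay between 0.09 and 0.39 when 1 library was left out. Summing Ifit3 and Ifit3b was chosen after seeing the data. The cause of these shifts was not tested. Mx1 and Ifit3 had the fewest reads, at least 34 and 81 in a library, and Ifit3 also shares sequence with Ifit3b.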
